A study of Papio anubis and Macaca mulatta with 6 samples.

Results

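The collagen genes were described one by one in the cell types of the prepubertal testis of the olive baboon and the rhesus macaque. A member was any gene of a species whose symbol is COL, a number, the letter A and a number. By this rule there were 44 collagen genes among 34178 in the baboon annotation and 41 among 21356 in the rhesus annotation. COL7A1, COL9A3 and COL15A1 were members in the baboon and were not analysed here in the rhesus macaque. Testis cells of 2 baboons and 2 rhesus macaques had been profiled in 6 single-cell RNA-seq libraries. The animals had no stated treatment or genotype, and their testes were obtained at necropsy after euthanasia for another purpose. Baboon 1 gave the libraries 1A and 1B, rhesus macaque 2 gave the libraries 2A and 2B, and the other animals gave 1 library each. The library of baboon 2 was made with version 3 of the 3′ chemistry and the others with version 2, so the chemistry and the animal cannot be told apart in the baboon. Ages of 15 and 20 months were given for the animals of one species, and ages of newborn and 26 months for the other. The sources differ on which pair of ages belongs to which species, so no age was assigned. The tissue was digested with collagenase and washed to remove interstitial cells before the trypsin step, so the interstitial cells that were measured are those left after that wash.

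Collagens are proteins of the extracellular matrix in which 3 chains wind around each other in a triple helix. Fibrillar collagens (types I, II, III, V and XI) form the fibrils of the interstitium, and type IV forms the network of basement membranes, such as those around the seminiferous tubules and under the endothelium. Type VI forms beaded filaments, the FACIT collagens (among them types IX, XII, XIV, XVI and XXI) sit on the surface of fibrils, and the multiplexins XV and XVIII link basement membranes to the matrix around them. In the testis, Sertoli cells and the surrounding peritubular cells build the tubule wall together.

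A gene of type I fibrils and the gene pair of the main type IV chains are shown with the DNA just before their starts, because fibrillar and basement membrane chains carry most of the comparisons that follow. The sequences were read from the rhesus genome Mmul_10 with the gene starts of RefSeq, 5′ to 3′ on the strand of the gene. For COL1A2 (120 bases before the gene, chr3:111731588-111731707, minus strand), capitals mark CCAAT, written ATTGG where it lies on the other strand. COL4A1 and COL4A2 lie head to head, and the whole stretch between them is 115 bases long (chr17:91748808-91748922, written on the plus strand, on which COL4A2 lies). There, capitals mark CCAAT and GGGCGG, which do not overlap.
COL1A2: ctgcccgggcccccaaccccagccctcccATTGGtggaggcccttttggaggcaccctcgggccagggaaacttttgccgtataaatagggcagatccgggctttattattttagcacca
COL4A1-COL4A2: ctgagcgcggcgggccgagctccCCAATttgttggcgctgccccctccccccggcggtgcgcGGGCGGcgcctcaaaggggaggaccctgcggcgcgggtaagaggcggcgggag
CCAAT, searched on both strands, was found 1 time before COL1A2. It was present in 19.6% of the 120-base stretches before all 20787 genes with a RefSeq start. The stretch between COL4A1 and COL4A2 held CCAAT and GGGCGG 1 time each, against 19.0% and 34.5% of all stretches of 115 bases. In the baboon, the same gene pair was separated by 118 bases (chr15:88397352-88397469, Panubis1.0). The type IV genes COL4A3 and COL4A4 are also neighbours, 15 bases apart in the rhesus macaque and 129 bases apart in the baboon. A match of letters is a description and not a binding site.

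Of 49708 cells (5584 to 11212 per library, with median UMI counts from 1444 to 2729 and 16875294 to 49803025 UMIs per library), classes were called from UMIs of marker genes, none of them a collagen. UMIs are unique molecular identifiers, 1 for each captured RNA molecule. A cell was placed in a class when UMIs of at least 2 of its markers exceeded what free RNA would bring, and no other class was present. Sertoli cells (10075 and 3255 in baboons 1 and 2, 3412 and 3641 in rhesus macaques 1 and 2) and stroma (1462 and 2989, 5006 and 7585) were the largest classes. Fewer cells were mural (77 and 44, 32 and 276), endothelial (132 and 132, 52 and 573) or Leydig (10 and 22, 255 and 135). The baboon Leydig class is thin: all 10 cells of baboon 1 rested on 2 markers, and the class held 109511 UMIs in all. Immune cells (34 and 58, 132 and 62), which are not known to make collagen fibrils, and the barcodes of near-empty droplets, called free RNA here, were measured as background. Pairs of baboon libraries shared 67, 1 and 2 cell barcodes and pairs of rhesus libraries 124, 121 and 109, the last between 2A and 2B, where 79.6 would be shared at random. Between 4.46% and 8.97% of cells per library carried a doublet mark and stayed in.

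Collagen UMIs were concentrated in the stroma, which is named from DCN, PDGFRA and other fibroblast markers. In the baboon, 0.624% and 0.650% of all stromal UMIs in animals 1 and 2 came from collagen genes. Sertoli cells had 0.0527% and 0.0603%, mural cells 0.260% and 0.301%, and endothelial cells 0.108% and 0.140%. Rhesus stroma had 0.382% and 0.472%, Sertoli cells 0.0479% and 0.0935%, mural cells 0.154% and 0.178%, and endothelial cells 0.0496% and 0.0913%. Free RNA held 0.0945% and 0.182% in the baboon and 0.0691% and 0.136% in the rhesus macaque, above the Sertoli cells of the same animal in each case. The stroma was above every other class in both animals of both species, and the animals did not overlap between stroma and any other of these classes. Levels below are UMIs of a gene scaled by the total UMIs of the class (CPM), given for animal 1 and then animal 2. Because each molecule is tagged once at its 3′ end, these levels were not divided by gene length, and levels of different genes were not ranked.

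**Figure D1:**
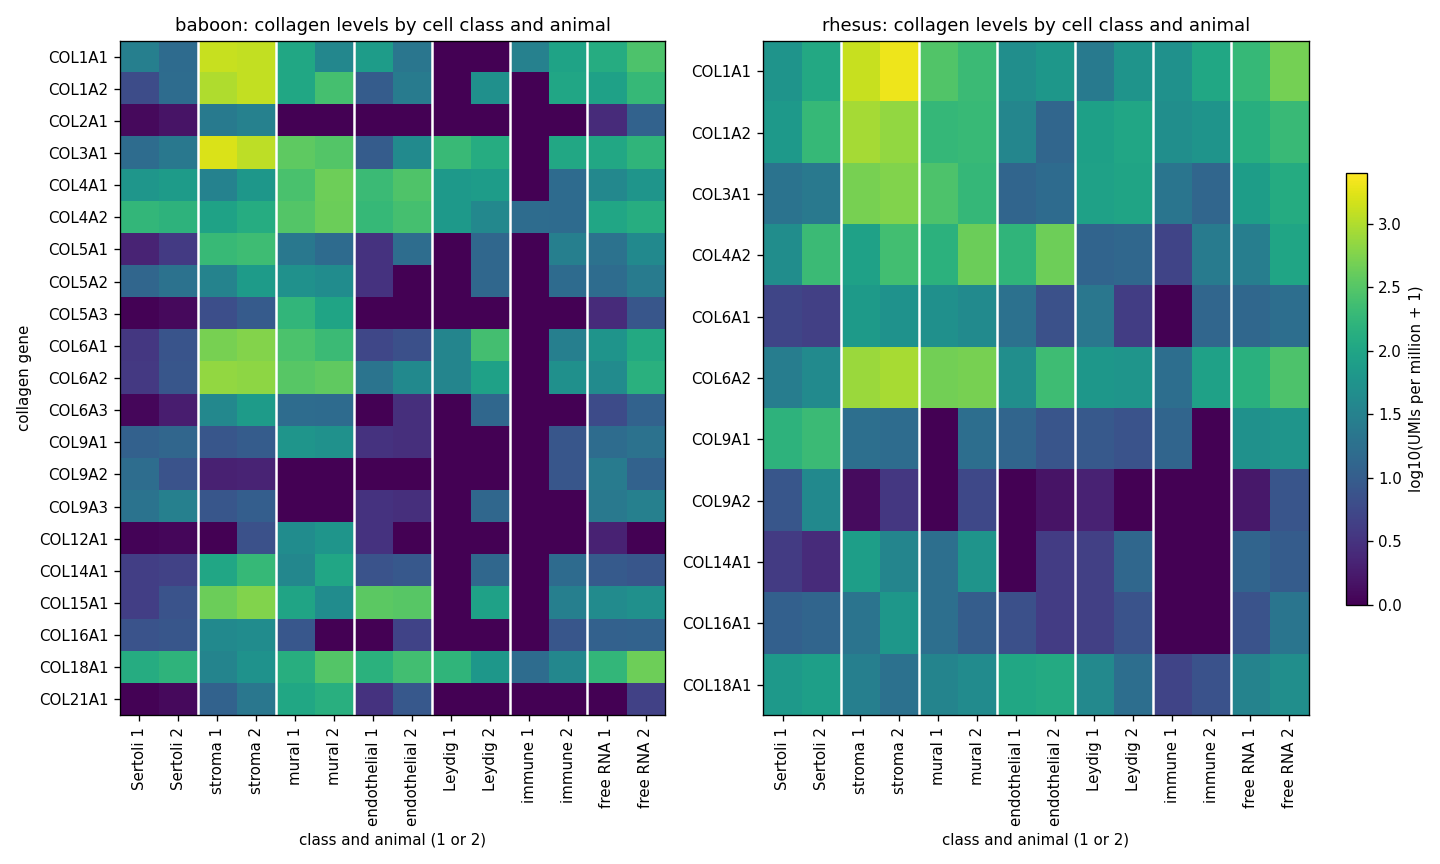
Collagen levels by cell class and animal in the baboon (left) and the rhesus macaque (right), for members at 50 CPM or more in any class and for the type IX genes. Colour gives log10(CPM + 1), and each pair of columns is 1 class in animals 1 and 2. COL1A1, COL1A2 and COL3A1 are brightest in the stroma of both species, and COL9A1 is bright in rhesus Sertoli cells.

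The first comparison asked which collagens separate the stroma from the Sertoli cells inside the tubule. The stroma class includes cells with genes of peritubular myoid and smooth muscle (15 and 32 in the baboon, 333 and 298 in the rhesus macaque), so it is not interstitial alone. In the baboon, 24 of the 44 members passed the filter on low counts, and of these 18 were higher and 4 lower in stroma (edgeR quasi-likelihood test on sums per animal, adjusted p under 0.05, n = 2 animals). Among all 8926 genes tested, 24.1% were higher and 24.6% lower. In the rhesus macaque, 15 of 41 members passed the filter, and 10 were higher and 3 lower, against 15.7% and 16.1% of 9881 genes. The median log2 fold change of the members that passed was 5.91 in the baboon and 2.90 in the rhesus macaque, and that of all genes was -0.0342 and -0.00593. These counts and medians describe the members that passed the filter and not the whole family. In the baboon, COL2A1, COL6A3 and COL16A1 were low in the other classes and passed through their stromal levels. COL5A3, COL12A1 and COL21A1 passed through their mural levels, and COL12A1 had 0 CPM in the stroma of baboon 1. The filter thus set part of the counts and medians, and nothing is read from their excess over all genes.

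Type I collagen, the main fibril protein of connective tissue, was higher in stroma in both species. COL1A1, which encodes its alpha 1 chain, had 1285 and 1211 CPM in baboon stroma and 27.9 and 14.3 CPM in Sertoli cells. The log2 fold change, given here and below with a standard error, was 6.12 ± 0.28, adjusted p = 8.22e-37. That standard error was derived from the test, as the absolute log2 fold change divided by the square root of the quasi-likelihood F statistic. The level of rhesus COL1A1 was 1305 and 2041 CPM in stroma and 57.1 and 112 CPM in Sertoli cells (4.46 ± 0.36, adjusted p = 3.57e-08). The animals of the stroma lay far above those of the Sertoli cells in both species, and free RNA lay between them at 128 and 282 CPM in the baboon and 189 and 486 CPM in the rhesus macaque. COL1A1 in Sertoli cells was below its level in free RNA in each animal, and the part of free RNA in the Sertoli level was not tested.

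Shares of cells were taken after each cell was thinned to 1000 UMIs, and shallower cells were left out (401 of 1462 and 226 of 2989 baboon stromal cells, 750 of 5006 and 1282 of 7585 rhesus stromal cells). At that depth 66.6% and 65.0% of baboon stromal cells had a COL1A1 UMI (exact 95% Clopper-Pearson intervals 63.7% to 69.5% and 63.2% to 66.8%, which cover counting error only). The shares of COL1A1 in rhesus stroma were 62.6% and 76.8%. Immune cells, at the same depth, had a COL1A1 UMI in 3.57% and 9.09% of baboon cells and in 4.30% and 5.41% of rhesus cells.

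COL1A2, the alpha 2 chain of type I, followed the same order. It had 995 and 1218 CPM in baboon stroma and 5.14 and 14.9 CPM in Sertoli cells (7.09 ± 0.29, adjusted p = 1.16e-40). Rhesus COL1A2 had 882 and 709.8 CPM in stroma and 66.1 and 187 CPM in Sertoli cells (2.90 ± 0.38, adjusted p = 6.93e-06), with 133 and 199.8 CPM in free RNA. COL3A1, which forms the type III fibrils of soft tissue, had 1600 and 1141 CPM in baboon stroma and 15.0 and 21.9 CPM in Sertoli cells (6.36 ± 0.29, adjusted p = 7.09e-37). In rhesus stroma the level of COL3A1 was 505 and 560.5 CPM, against 18.4 and 22.4 CPM in Sertoli cells (4.82 ± 0.31, adjusted p = 9.15e-09). The groups did not overlap for any of these 3 genes.

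Type V chains, which set the diameter of type I fibrils, were higher in stroma where they were tested. COL5A1 had 196 and 217 CPM in baboon stroma and 1.21 and 2.73 CPM in Sertoli cells (6.87 ± 0.27, adjusted p = 2.20e-42). In rhesus stroma COL5A1 had only 3.35 and 6.74 CPM, and it did not pass the filter on low counts. COL5A2 had 31.8 and 71.6 CPM in baboon stroma and 12.4 and 18.3 CPM in Sertoli cells (1.85 ± 0.25, adjusted p = 3.60e-10). Rhesus COL5A2 had 5.39 and 13.1 CPM in stroma and 0.407 and 0.877 CPM in Sertoli cells (3.92 ± 0.72, adjusted p = 2.90e-04). COL2A1, best known as the fibrillar collagen of cartilage, had 23.1 and 30.5 CPM in baboon stroma and 0.227 and 0.511 CPM in Sertoli cells (6.25 ± 0.51, adjusted p = 3.89e-20). In rhesus stroma, COL2A1 had 3.48 and 0.341 CPM.

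Type VI collagen, whose filaments surround cells of connective tissue, was higher in stroma for each of its chains that was tested in this comparison. COL6A1 had 510.5 and 593 CPM in baboon stroma and 2.53 and 6.75 CPM in Sertoli cells (7.10 ± 0.28, adjusted p = 1.14e-41). COL6A2 had 713 and 656 CPM against 2.72 and 7.05 CPM (7.35 ± 0.29, adjusted p = 5.20e-42), and COL6A3 had 38.0 and 71.8 CPM against 0.151 and 0.886 CPM (6.87 ± 0.37, adjusted p = 1.01e-31). Rhesus COL6A2 had 773 and 911 CPM in stroma and 26.6 and 41.6 CPM in Sertoli cells (4.77 ± 0.43, adjusted p = 1.14e-07). COL6A1 had 71.2 and 53.6 CPM against 4.21 and 3.36 CPM (4.14 ± 0.38, adjusted p = 1.45e-07). COL6A3 had 11.1 and 13.6 CPM against 0.543 and 0.584 CPM (4.49 ± 0.59, adjusted p = 9.10e-06). The UMIs of COL6A2 were 1.40 and 1.11 times those of COL6A1 in baboon stroma and 10.9 and 17.0 times in rhesus stroma. A ratio between chains rests on how well each 3′ end is annotated, which was not tested.

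Of the collagens on fibril surfaces, COL14A1 (type XIV) had 102 and 188 CPM in baboon stroma and 3.21 and 3.68 CPM in Sertoli cells (5.48 ± 0.25, adjusted p = 1.54e-37). Rhesus COL14A1 had 80.0 and 34.1 CPM against 2.85 and 1.61 CPM (4.69 ± 0.51, adjusted p = 8.68e-07). COL16A1 (type XVI) had 39.5 and 44.7 CPM against 6.39 and 7.22 CPM in the baboon (2.75 ± 0.30, adjusted p = 4.29e-14) and 19.2 and 62.3 CPM against 10.2 and 12 CPM in the rhesus macaque (1.80 ± 0.39, adjusted p = 0.00145). In rhesus macaque 1 the stroma was less than 2 times the level of the Sertoli cells for COL16A1. COL15A1, a multiplexin of the zone beneath basement membranes, was higher in baboon stroma than in Sertoli cells (6.86 ± 0.28, adjusted p = 7.54e-41). It had 432 and 569 CPM in stroma and 3.25 and 6.30 CPM in Sertoli cells. Baboon endothelial cells, at 348 and 328 CPM of COL15A1, were nearer to the stroma.

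Type IX collagen, known from the fibril surface of cartilage, showed the opposite order in the rhesus macaque. COL9A1 had 156 and 206 CPM in rhesus Sertoli cells, 16.3 and 14.9 CPM in stroma, 11.7 and 6.92 CPM in endothelial cells and 7.95 and 6.37 CPM in Leydig cells. The log2 fold change of stroma over Sertoli cells was -3.41 ± 0.30, adjusted p = 1.08e-07, and Sertoli cells had 9.58 and 13.8 times the level of the stroma. Free RNA held 51.6 and 59.0 CPM of COL9A1, below the Sertoli cells and above every other class of the same animal. At 1000 UMIs per cell, 10.6% and 17.8% of rhesus Sertoli cells had a COL9A1 UMI (intervals 9.53% to 11.7% and 16.4% to 19.2%). In rhesus stroma the share with a COL9A1 UMI was 1.46% and 1.41%, and immune cells had 1 in 93 cells and 0 in 37, the latter of which allows a share of up to 8.11%. COL9A2, a partner chain, had 7.19 and 40.0 CPM in rhesus Sertoli cells and 0.240 and 2.56 CPM in stroma (-3.93 ± 0.54, adjusted p = 1.43e-05). The animals differed widely in Sertoli cells.

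In the baboon, COL9A1 had 10.5 and 12.3 CPM in Sertoli cells and 7.18 and 8.81 CPM in stroma (-0.36 ± 0.39, adjusted p = 0.465), and free RNA held 14.7 and 18.1 CPM. COL9A2 had 15.3 and 6.30 CPM in baboon Sertoli cells and 1.03 and 1.19 CPM in stroma, and COL9A3 had 18.6 and 28.8 CPM against 7.18 and 9.31 CPM, with free RNA at 25.1 and 10.8 CPM and 22.9 and 28.9 CPM. COL9A2 and COL9A3 did not pass the filter on low counts in the baboon. Each of the 3 type IX genes was at or below its level in free RNA in baboon Sertoli cells. All 3 were also above the stroma of the same animal there, and the part of free RNA in these levels was not tested. The difference between the species was not tested.

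**Figure D2:**
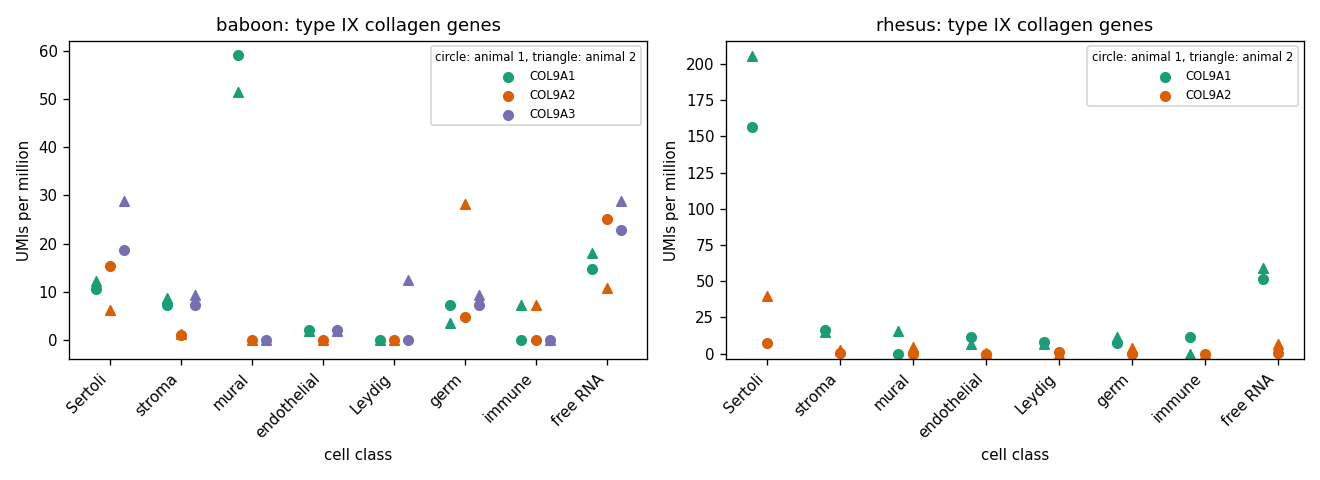
Levels of the type IX collagen genes in CPM by cell class, in the baboon (left) and the rhesus macaque (right), on separate axes, with 1 colour per gene, a circle for animal 1 and a triangle for animal 2. Rhesus COL9A1 in Sertoli cells (156 and 206) stands above free RNA (51.6 and 59.0) and all other classes, and in the baboon the highest COL9A1 levels are in mural cells (59.1 and 51.3).

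Genes of basement membranes divided differently between stroma and Sertoli cells. COL4A2, which with COL4A1 encodes the chains found in nearly every basement membrane, had 177 and 157 CPM in baboon Sertoli cells and 89.8 and 126 CPM in stroma (-0.52 ± 0.20, adjusted p = 0.0288). This call was lost without the animal as a block (adjusted p = 0.263), with DESeq2 (0.148) and with classes from clusters (0.172). Rhesus COL4A2 had 46.0 and 207 CPM in Sertoli cells and 87.0 and 236 CPM in stroma (0.65 ± 0.29, adjusted p = 0.0976), and the animals differed more from each other than the classes did. COL4A1 had 61.0 and 71.4 CPM in baboon Sertoli cells and 31.3 and 61.5 CPM in stroma (-0.41 ± 0.21, adjusted p = 0.104). Rhesus COL4A1 was low in both classes and higher in stroma, with 2.31 and 5.11 CPM in Sertoli cells and 9.59 and 11.5 CPM in stroma (1.68 ± 0.47, adjusted p = 0.00965).

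COL18A1, the multiplexin from which endostatin is cut, was higher in Sertoli cells than in stroma in both species. It had 127 and 163 CPM in baboon Sertoli cells and 32.8 and 52.7 CPM in stroma (-1.65 ± 0.22, adjusted p = 1.04e-10). Rhesus COL18A1 had 69.1 and 81.4 CPM in Sertoli cells and 28.2 and 17.5 CPM in stroma (-1.63 ± 0.31, adjusted p = 4.63e-04). Free RNA held 177 and 448 CPM of COL18A1 in the baboon, above its Sertoli cells, and 32.5 and 47.3 CPM in the rhesus macaque, below them. Immune cells of the same libraries had 15.0 and 36.0 CPM in the baboon and 3.93 and 6.22 CPM in the rhesus macaque, below the Sertoli cells of each animal. The immune classes held 66528 and 138889 UMIs in the baboon and 254273 and 160807 in the rhesus macaque. Their COL18A1 levels thus rest on few molecules. The part of free RNA in the baboon level was not tested.

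The remaining type IV chains were below 50 CPM in most classes and are given because they pair with each other, a choice made after their values were seen. COL4A3 and COL4A4, neighbours on the chromosome and partners in the basement membranes of kidney and lung, were higher in baboon Sertoli cells than in stroma. COL4A3 had 14.6 and 24.0 CPM against 0.513 and 1.19 CPM (-4.29 ± 0.51, adjusted p = 2.24e-12), and COL4A4 had 10.1 and 23.2 CPM against 1.03 and 0.508 CPM (-4.76 ± 0.60, adjusted p = 3.53e-11). The free RNA levels of COL4A4, 12.6 and 10.8 CPM, overlapped those of the Sertoli cells. COL4A5 and COL4A6, the X-linked pair, had the reverse order in the baboon. COL4A5 had 0.189 and 1.40 CPM in Sertoli cells and 25.1 and 64.2 CPM in stroma (6.03 ± 0.37, adjusted p = 7.99e-28), and COL4A6 had 0.0756 and 0.579 CPM against 14.4 and 41.3 CPM (6.50 ± 0.51, adjusted p = 7.24e-21). Rhesus COL4A5 had 6.83 and 13.4 CPM in stroma, while COL4A3, COL4A4 and COL4A6 stayed below 6 CPM in each class of either animal.

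**Figure D3:**
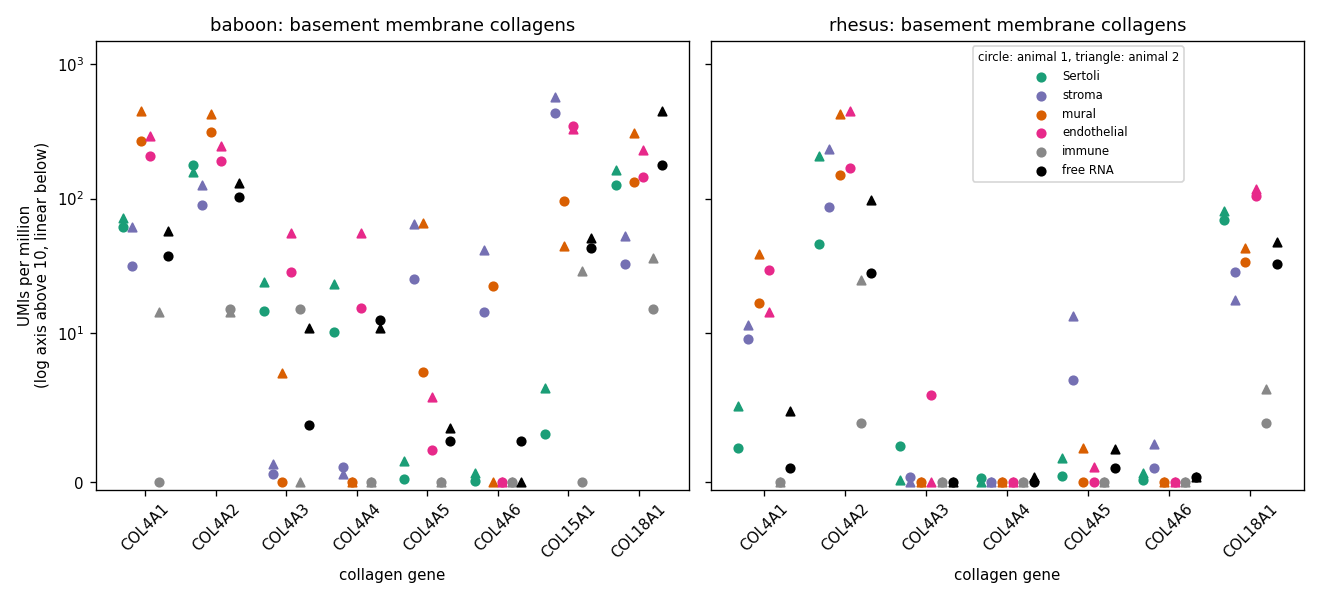
Levels of the type IV chains and of COL15A1 and COL18A1 in CPM (log axis above 10, linear below) in the baboon (left) and the rhesus macaque (right), with 1 colour per class, a circle for animal 1 and a triangle for animal 2. COL4A1 and COL4A2 are highest in mural and endothelial cells of the baboon (189 to 447), and of the 5 classes compared COL4A3 and COL4A4 are highest in its endothelial cells.

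The next comparison set the mural cells around vessels, called from pericyte markers such as RGS5 and NOTCH3, against the stroma. In the baboon, 7 of the 24 members tested were higher and 11 lower in mural cells, against 7.75% and 5.49% of all genes. Of those higher, COL5A3, COL12A1, COL21A1 and COL9A1 were low in the other classes and passed the filter through their mural levels. The filter thus set part of that count, and nothing is read from its excess over all genes. In the rhesus macaque, 0 of 15 were higher and 3 were lower, against 2.99% and 1.81% of all genes. The mural class of rhesus macaque 1 is thin: 21 of its 32 cells rested on 2 markers. It held 59861 UMIs, 92 of them from collagens, and 1 UMI there stands at 16.7 CPM. Members of low level were therefore not detectable in that animal. At the level of all genes, 1476 had an unadjusted p under 0.05 in the rhesus comparison. The median log2 fold change of the members tested was -1.09 in the baboon, and that of all genes was -0.125. The baboon median was -0.744 once 2 members without a mural UMI were reset. COL2A1 was set to its bound at a floor of 3 UMIs, and COL4A4, for which that floor gave no bound, was set to 0. The rhesus medians of the members tested and of all genes were -0.523 and -0.157. The summed stroma markers reached 554 and 594 CPM in baboon mural cells (8 of 10 markers, with LUM and PDGFRA at 0) and 1253 and 886 CPM in rhesus mural cells (8 of 8 listed), and their part in the collagen levels was not tested.

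In baboon mural cells, both main type IV chains were above the stroma. COL4A1 had 266 and 447 CPM in mural cells and 31.3 and 61.5 CPM in stroma (2.88 ± 0.27, adjusted p = 8.65e-16), and COL4A2 had 310.5 and 425 CPM against 89.8 and 126 CPM (1.71 ± 0.26, adjusted p = 5.82e-08). COL18A1 was also higher, with 133 and 308 CPM against 32.8 and 52.7 CPM in stroma (2.29 ± 0.30, adjusted p = 1.21e-09). The mural animals lay above the stromal ones for all 3 genes, but for COL18A1 they lay below free RNA (177 and 448 CPM) in each baboon, and the part of free RNA in that level was not tested. Rhesus COL4A2 had 150.3 and 428 CPM in mural cells and 87.0 and 236 CPM in stroma (0.64 ± 0.33, adjusted p = 0.395), higher in each animal and not called. COL4A1 had 16.7 and 38.5 CPM in rhesus mural cells (1.44 ± 0.60, adjusted p = 0.252), and COL18A1 had 33.4 and 43.1 CPM (0.81 ± 0.47, adjusted p = 0.457).

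COL5A3, the third type V chain, COL12A1 and COL21A1, both FACIT collagens, and COL9A1 were the other members that were higher in baboon mural cells. COL5A3 had 170 and 95.3 CPM in mural cells and 5.64 and 8.47 CPM in stroma (4.16 ± 0.63, adjusted p = 6.74e-08). COL21A1 had 104 and 139 CPM against 10.8 and 21.5 CPM (2.90 ± 0.52, adjusted p = 6.70e-06), COL12A1 had 44.4 and 58.7 CPM against 0 and 5.93 CPM (4.04 ± 0.88, adjusted p = 2.47e-04), and COL9A1 had 59.1 and 51.3 CPM against 7.18 and 8.81 CPM (2.72 ± 0.63, adjusted p = 5.63e-04). The mural values rest on few molecules: 23 and 13 UMIs for COL5A3, 14 and 19 for COL21A1, 6 and 8 for COL12A1, and 8 and 7 for COL9A1. The call of COL12A1 was lost without the block (adjusted p = 0.0587) and with classes from clusters (0.0769). In rhesus mural cells COL5A3 had 0 and 9.06 CPM, COL21A1 had 16.7 and 9.06 CPM, and COL9A1 had 0 and 15.9 CPM. The values of rhesus macaque 1 rest on a class of 59861 UMIs, where 1 UMI stands at 16.7 CPM, so no difference between the species is read from them.

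The type I and type III chains were lower in mural cells than in stroma in both species. COL1A1 had 104 and 36.7 CPM in baboon mural cells (-4.32 ± 0.35, adjusted p = 4.22e-19) and 301 and 206 CPM in rhesus mural cells (-3.08 ± 0.37, adjusted p = 3.05e-05). COL1A2 had 104 and 249 CPM (-2.82 ± 0.30, adjusted p = 2.17e-13) and 184 and 197 CPM (-2.32 ± 0.41, adjusted p = 0.00136). COL3A1 had 362 and 308 CPM (-2.09 ± 0.28, adjusted p = 1.40e-09) and 284 and 184 CPM (-1.54 ± 0.30, adjusted p = 0.00358). Per animal, the stroma held 4.42 and 3.70 times the mural level of COL3A1 in the baboon and 1.78 and 3.05 times in the rhesus macaque, and for COL1A1 12.4 and 33.0 times in the baboon and 4.34 and 9.90 times in the rhesus macaque. The difference between the genes was not tested.

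COL15A1 was lower in baboon mural cells, with 96.1 and 44.0 CPM (-2.88 ± 0.35, adjusted p = 8.15e-11), as was COL5A1, with 22.2 and 14.7 CPM (-3.56 ± 0.50, adjusted p = 8.51e-09). COL5A2 had 51.8 and 44.0 CPM, which overlapped its range in stroma (-0.14 ± 0.49, adjusted p = 0.913). COL2A1 had 0 UMIs in baboon mural cells, which at a floor of 3 UMIs over the class is at least 2.59-fold lower than in stroma (adjusted p = 0.0190). That call was lost without the block (0.0851), with DESeq2 (0.0652) and with classes from clusters (0.106), and the call of COL15A1 was lost with classes from clusters (0.114). COL6A1 had 274 and 205 CPM (-1.25 ± 0.28, adjusted p = 3.56e-04), COL6A2 325 and 367 CPM (-1.07 ± 0.26, adjusted p = 0.00142), COL6A3 14.8 and 14.7 CPM (-1.97 ± 0.69, adjusted p = 0.0433), COL14A1 37.0 and 103 CPM (-1.10 ± 0.37, adjusted p = 0.0330) and COL16A1 7.39 and 0 CPM (-3.56 ± 1.04, adjusted p = 0.00955). The calls of these last 5 genes were lost without the block (adjusted p from 0.0720 to 0.293), with DESeq2 (0.124 to 0.272) and with classes from clusters (0.0568 to 0.416). The call of COL14A1 was also lost without library 1A (0.0775) and that of COL6A3 without library 1B (0.0842). Rhesus mural cells had 468 and 503 CPM of COL6A2 (-1.09 ± 0.40, adjusted p = 0.155), 50.1 and 40.8 CPM of COL6A1 (-0.52 ± 0.45, adjusted p = 0.669), 16.7 and 56.7 CPM of COL14A1 (-0.14 ± 0.57, adjusted p = 0.959) and 16.7 and 9.06 CPM of COL16A1 (-2.26 ± 0.72, adjusted p = 0.0893). In the rhesus comparison the members called were COL1A1, COL1A2 and COL3A1.

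Endothelial cells, called from PECAM1, CDH5 and other vessel markers, were then set against the stroma. In the baboon, 5 of the 24 members tested were higher and 15 lower, against 19.0% and 17.8% of all genes. In the rhesus macaque, 1 of 15 was higher and 9 were lower, against 11.4% and 10.0%. The counts higher were near the share over all genes in both species, and nothing is read from those counts. Of the baboon members lower, COL2A1, COL6A3 and COL16A1 passed the filter through their stromal levels, so the filter set part of that count. The medians of the members tested were -4.42 in the baboon (-3.37 with 3 members at their bound) and -2.88 in the rhesus macaque, and those of all genes were -0.0622 and -0.0964.

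The 5 members called higher in baboon endothelial cells were COL4A1, COL4A2, COL4A3, COL4A4 and COL18A1. COL4A1 had 206 and 290.5 CPM (2.36 ± 0.23, adjusted p = 2.18e-15) and COL4A2 had 189 and 245 CPM (0.95 ± 0.23, adjusted p = 3.31e-04). COL4A3 had 28.3 and 55.1 CPM (5.46 ± 0.58, adjusted p = 6.81e-14) and COL4A4 had 15.2 and 55.1 CPM (5.87 ± 0.68, adjusted p = 2.59e-12). Of the 5 classes compared, endothelial cells had the highest COL4A3 and COL4A4 in each baboon. COL18A1 had 146 and 232 CPM in baboon endothelial cells (2.08 ± 0.24, adjusted p = 3.14e-12) and 105 and 118 CPM in rhesus endothelial cells (2.33 ± 0.35, adjusted p = 5.36e-05), where it was the only member called higher. In the baboon this COL18A1 level was below free RNA (177 and 448 CPM) in each animal, and in the rhesus macaque it was above (32.5 and 47.3 CPM). Rhesus endothelial cells had 169 and 446 CPM of COL4A2 (0.84 ± 0.31, adjusted p = 0.0620), above the stroma in each animal. COL4A2 passed under 6 alternatives, among them DESeq2 (adjusted p = 0.0187), classes from clusters (0.00632) and the fit without library 2B (0.0464). COL4A1 had 29.2 and 14.3 CPM in rhesus endothelial cells (0.57 ± 0.55, adjusted p = 0.520).

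The ratio of the 2 chains differed between these classes in the baboon, with no test. COL4A2 had 0.916 and 0.843 UMIs for each UMI of COL4A1 in endothelial cells, 1.17 and 0.951 in mural cells, 2.91 and 2.19 in Sertoli cells and 2.87 and 2.04 in stroma. The vascular classes did not overlap with Sertoli cells and stroma. Leydig cells had 2 UMIs of each chain in baboon 1 and 3 UMIs of COL4A2 against 6 of COL4A1 in baboon 2. The same ratio in the rhesus macaque was 9.07 and 20.5 in stroma, 19.9 and 40.5 in Sertoli cells and 5.80 and 31.1 in endothelial cells. In mural cells it was 11.1 in animal 2, and animal 1 had 9 UMIs of COL4A2 and 1 of COL4A1. Sertoli cells were above stroma in each rhesus animal. Endothelial cells were below stroma in animal 1, on 5 UMIs of COL4A1, and above it in animal 2.

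The type I and III chains, COL6A1 and COL6A2 were lower in endothelial cells than in stroma in both species. COL1A1 had 73.9 and 20.9 CPM in the baboon (-4.91 ± 0.31, adjusted p = 1.10e-26) and 46.6 and 62.3 CPM in the rhesus macaque (-5.02 ± 0.40, adjusted p = 3.05e-08). COL3A1 had 8.70 and 41.8 CPM in the baboon (-5.79 ± 0.34, adjusted p = 1.04e-28) and 11.7 and 14.3 CPM in the rhesus macaque (-5.30 ± 0.37, adjusted p = 7.82e-09). COL1A2 had 8.70 and 24.7 CPM in the baboon and 35.0 and 12.3 CPM in the rhesus macaque, lower than in stroma in both (-6.21 ± 0.35, adjusted p = 7.92e-30 and -5.77 ± 0.50, adjusted p = 9.91e-08). COL6A1 had 4.35 and 5.70 CPM in the baboon (-6.87 ± 0.42, adjusted p = 3.15e-27) and 17.5 and 5.93 CPM in the rhesus macaque (-2.88 ± 0.48, adjusted p = 1.70e-04). COL6A2 had 19.6 and 39.9 CPM in the baboon (-4.63 ± 0.32, adjusted p = 1.80e-24) and 46.6 and 218 CPM in the rhesus macaque (-2.67 ± 0.41, adjusted p = 7.67e-05), where free RNA held 141 and 278 CPM. COL1A1, COL1A2 and COL3A1 in endothelial cells were below free RNA in each animal, and the part of free RNA in these levels was not tested.

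COL14A1 had 6.52 and 7.60 CPM in baboon endothelial cells and 0 and 2.96 CPM in rhesus ones, and COL16A1 had 0 and 3.80 CPM and 5.83 and 2.96 CPM, each called lower than in stroma. COL5A1 had 2.17 and 15.2 CPM in the baboon, COL5A2 had 2.17 and 0 CPM, COL6A3 had 0 and 1.90 CPM and COL4A5 had 2.17 and 5.70 CPM, and these were also lower. COL5A2 (5.83 and 0 CPM) and COL6A3 (0 and 1.48 CPM) were lower in the rhesus macaque. COL2A1 and COL4A6 had 0 UMIs among 986651 in baboon endothelial cells, which puts them at least 9.42-fold and at least 11.4-fold lower than in stroma (adjusted p = 4.86e-06 for both). COL5A3 also had 0 UMIs there (at least 2.55-fold lower), and with classes from clusters its log2 fold change turned to 1.07 (adjusted p = 0.271). COL12A1 had 2.17 and 0 CPM, COL21A1 2.17 and 7.60 CPM and COL9A1 2.17 and 1.90 CPM, and these and COL13A1 were not called.

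COL15A1 was at a like order of level in endothelial cells and stroma of the baboon. It had 348 and 328 CPM in baboon endothelial cells and 432 and 569 CPM in stroma (-0.60 ± 0.23, adjusted p = 0.0324). The call was lost in 6 alternatives, with adjusted p = 0.203 without library 1B and 0.616 with classes from clusters. At 1000 UMIs per cell, 35.1% and 28.0% of endothelial cells and 31.0% and 35.6% of stromal cells had a COL15A1 UMI. Sertoli cells had one in 0.309% and 0.783%, and immune cells in 0 of 28 and 0 of 44, which allows up to 10.7% and 6.82%. The summed stroma markers of baboon endothelial cells were at 117 and 189.9 CPM, against 8712 and 8071 CPM in stroma itself.

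Leydig cells, the hormone-producing cells of the interstitium, were low in collagen relative to stroma. Collagen genes gave 0.0573% and 0.0877% of their UMIs in the baboon (17 and 70 UMIs) and 0.0361% and 0.0397% in the rhesus macaque. These shares were above those of the Sertoli cells of the same animal in the baboon and below them in the rhesus macaque. In the baboon, 0 of 24 members tested were higher and 8 were lower than in stroma, against 1.66% and 3.08% of all genes. In the rhesus macaque, 0 of 15 were higher and 9 lower, against 4.81% and 4.46%. In the baboon comparison 1478 of all genes had an unadjusted p under 0.05, and in the rhesus comparison 2153. The medians of the members tested were -4.49 in the baboon and -2.42 in the rhesus macaque, against -0.422 and -0.0656 for all genes. With members without a Leydig UMI reset, the medians were -1.04 in the baboon (10 members) and -2.09 in the rhesus macaque (2 members). These members were set to their bound. The baboon genes COL21A1, COL9A1, COL12A1, COL4A3, COL4A4 and COL5A3, for which the floor gave no bound, were set to 0. The summed stroma markers reached 506 and 651 CPM in baboon Leydig cells and 1046 and 529 CPM in rhesus Leydig cells. Their part in the collagen levels was not tested.

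Rhesus Leydig cells, which are the larger class, had 23.8 and 55.8 CPM of COL1A1 (-4.99 ± 0.39, adjusted p = 2.04e-07), 84.0 and 100.4 CPM of COL1A2 (-2.69 ± 0.39, adjusted p = 1.29e-04) and 87.4 and 95.6 CPM of COL3A1 (-2.09 ± 0.29, adjusted p = 8.28e-05). COL6A2 had 61.3 and 59.0 CPM (-3.33 ± 0.42, adjusted p = 3.54e-05) and COL6A1 21.6 and 3.19 CPM (-1.90 ± 0.43, adjusted p = 0.00776). COL4A2 had 11.3 and 12.8 CPM, far below the Sertoli and stromal cells of the same animals (-3.13 ± 0.40, adjusted p = 4.08e-05). COL4A1 had 0 UMIs among 1508437, at least 5.39-fold lower than in stroma (adjusted p = 0.0153). COL14A1 had 3.41 and 12.8 CPM (-2.42 ± 0.62, adjusted p = 0.0162) and COL16A1 3.41 and 6.37 CPM (-2.50 ± 0.60, adjusted p = 0.0114). COL18A1 had 38.6 and 15.9 CPM and was not called (0.74 ± 0.38, adjusted p = 0.274). COL1A1 and COL1A2 in rhesus Leydig cells were below their levels in free RNA given above, and the part of free RNA was not tested. The calls of COL14A1, COL16A1, COL4A2 and COL6A1 were lost without the animal as a block (adjusted p = 0.133, 0.0719, 0.0692 and 0.20), and that of COL16A1 also without library 2B (0.0674). The call of COL4A1 was lost without the block too, since 4 of the 9 calls were left there, those of COL1A1, COL1A2, COL3A1 and COL6A2.

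In the 32 baboon Leydig cells, COL1A1 had 0 UMIs, at least 44.9-fold lower than in stroma (adjusted p = 1.62e-17). COL1A2 had 0 and 50.1 CPM (-5.34 ± 0.50, adjusted p = 3.71e-15), COL3A1 202 and 125 CPM (-3.40 ± 0.38, adjusted p = 1.19e-11) and COL15A1 0 and 87.7 CPM (-3.20 ± 0.47, adjusted p = 1.78e-07). COL6A1 had 33.7 and 238 CPM (-1.92 ± 0.38, adjusted p = 1.31e-04) and COL6A2 33.7 and 87.7 CPM (-3.52 ± 0.45, adjusted p = 1.46e-09). COL5A1 (0 and 12.5 CPM) and COL14A1 (0 and 12.5 CPM) completed the members called lower. COL4A1 had 67.5 and 75.1 CPM, COL4A2 67.5 and 37.6 CPM and COL18A1 169 and 62.6 CPM, and none of these 3 was called. The calls of COL6A1 and COL14A1 were lost without the block (adjusted p = 0.193 and 0.0541) and with DESeq2 (0.0607 and 0.0559). With so few cells, differences in members of low level were not detectable in this class.

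The stroma was next split along its own range, from cells with UMIs of C7, IGFBP3, MGP and IGFBP6 (C7 side, with 776 and 1745 baboon cells, and 2845 and 1447 rhesus cells) to cells with UMIs of DLK1, STC1, NRK and HTRA3 (DLK1 side, 188 and 347, 597 and 2143). Cells that also passed the list of smooth muscle genes were set apart as contractile stroma (15 and 32, 333 and 298). These are ranges cut from a score and not separate types, since 351 and 775 baboon cells and 853 and 1860 rhesus cells lay between the sides. In the baboon, 3 of 24 members tested were higher and 1 was lower on the DLK1 side, against 1.28% and 1.29% of all genes. In the rhesus macaque, 0 of 14 were called in either direction, against 0.0633% and 0.0106% of all genes, and 196 of all 9473 genes had an unadjusted p under 0.05. In the rhesus fit with DESeq2, the count of collagens called was also 0.

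COL14A1, which decorates fibrils, fell toward the DLK1 side in the baboon. It had 141 and 259.9 CPM on the C7 side, 72.8 and 130.3 CPM between the sides and 36.7 and 34.7 CPM on the DLK1 side (-2.64 ± 0.31, adjusted p = 1.26e-14). COL15A1 ran the other way, with 318 and 385 CPM, 524 and 681 CPM and 665 and 1055 CPM in the same order (1.24 ± 0.23, adjusted p = 1.25e-05). COL2A1 had 6.84 and 10.5 CPM on the C7 side, 27.0 and 38.2 CPM between and 69.8 and 85.0 CPM on the DLK1 side (3.1 ± 0.51, adjusted p = 2.11e-07). COL4A1 had 24.4 and 45.1 CPM, 33.3 and 80.6 CPM and 62.5 and 85.0 CPM in that order (1.00 ± 0.29, adjusted p = 0.0296). For these 4 genes the sides did not overlap, and the cells between them had levels between the sides in each animal. All 4 calls were lost without the animal as a block (adjusted p from 0.103 to 1.00) and when only barcodes above the UMI cutoff were kept (0.116 to 0.994), and that of COL4A1 also without library 1A (0.317).

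No type I, III or VI chain was called along this range in the baboon. COL1A1 had 1484 and 1357 CPM on the C7 side and 940.5 and 818 CPM on the DLK1 side of the baboon (-0.73 ± 0.24, adjusted p = 0.0662), and it passed without library 1A (adjusted p = 0.0259). COL1A2 had 1122 and 1252 CPM against 845 and 1076 CPM (-0.38 ± 0.24, adjusted p = 0.797), and COL3A1 had 1724 and 1186 CPM against 1381 and 921 CPM (-0.39 ± 0.24, adjusted p = 0.781). COL6A1 had 557 and 652 CPM against 429.9 and 425 CPM (-0.55 ± 0.23, adjusted p = 0.308), COL6A2 800.1 and 706 CPM against 518 and 498 CPM (-0.63 ± 0.23, adjusted p = 0.166), and COL5A1 210.1 and 224 CPM against 228 and 206 CPM (-0.08 ± 0.23, adjusted p = 0.998). The first 5 of these 6 genes were lower on the DLK1 side in each baboon, and none was called. COL6A3 had 33.2 and 77.3 CPM against 58.8 and 51.5 CPM (-0.16 ± 0.36, adjusted p = 0.996), so the animals went in opposite directions. COL6A6, a further type VI chain, had a positive log2 fold change (1.16 ± 0.68, adjusted p = 0.739) and was not called.

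Rhesus COL14A1 had 122 and 33.0 CPM on the C7 side and 20.5 and 40.0 CPM on the DLK1 side (-1.21 ± 0.51, adjusted p = 1.00), so the animals went in opposite directions. COL4A2 had 66.5 and 187 CPM against 125 and 259.5 CPM (0.64 ± 0.27, adjusted p = 1.00), higher on the DLK1 side in each animal. COL1A1 had 1340 and 1760 CPM against 1293 and 2230 CPM (0.09 ± 0.29, adjusted p = 1.00) and COL16A1 20.5 and 52.8 CPM against 20.5 and 72.0 CPM (0.31 ± 0.38, adjusted p = 1.00). COL2A1 had 0.218 and 0.459 CPM on the C7 side and 13.7 and 0.834 CPM on the DLK1 side, and it did not pass the filter on low counts. The high value came from rhesus macaque 1.

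Contractile stroma, which holds cells with the genes of peritubular myoid and smooth muscle, also held the fibrillar chains. COL1A1 had 1462 and 3471 CPM there in the rhesus macaque, COL1A2 996 and 1308 CPM and COL3A1 542 and 948 CPM. COL4A2 had 162 and 625 CPM, above both sides of the range in each rhesus animal. In the baboon, the class was small, with 1026 and 1227 CPM of COL1A1, 855 and 644 CPM of COL15A1, 85.5 and 146 CPM of COL2A1 and 42.7 and 206 CPM of COL4A2. The COL2A1 levels were above both sides of the range and rest on 2 and 12 UMIs. Contractile stroma entered no comparison of its own.

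**Figure D4:**
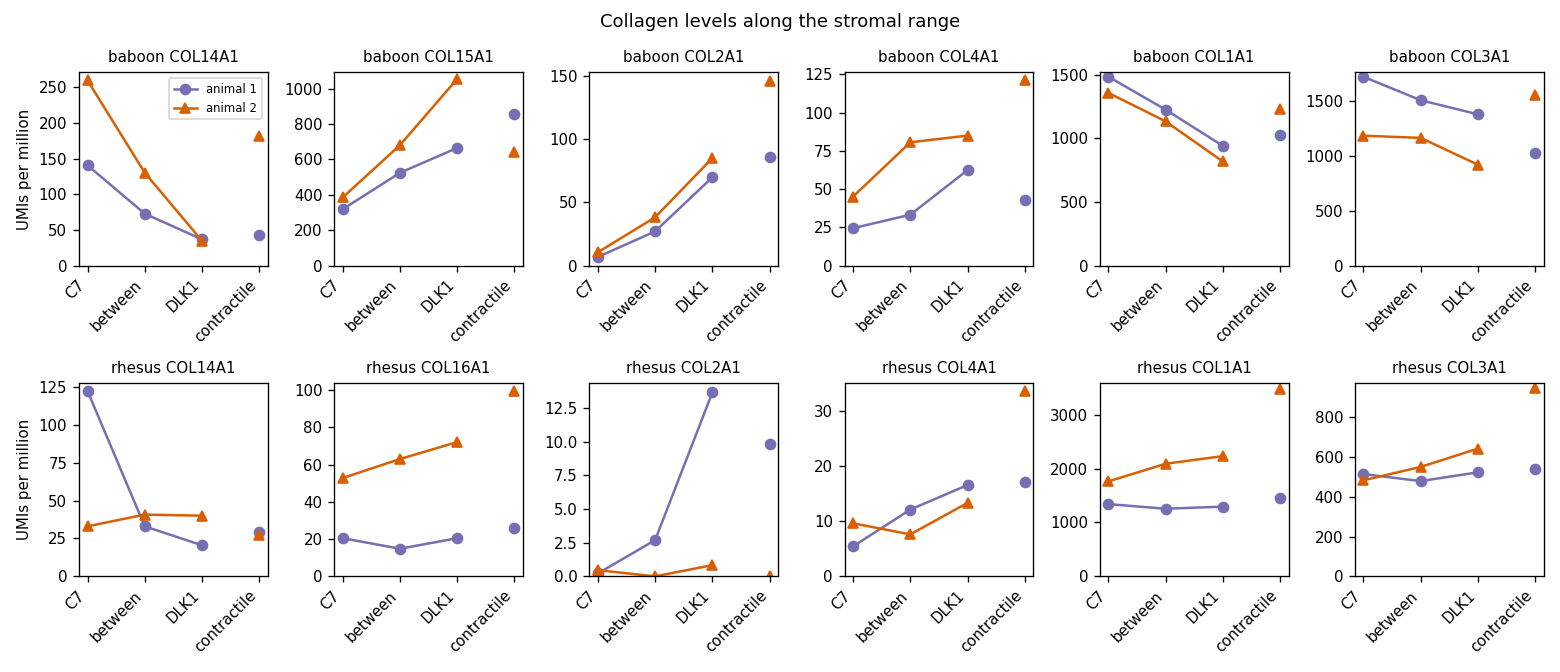
Levels of 6 collagens along the stromal range in CPM, for the baboon (top) and the rhesus macaque (bottom), with 1 line per animal from the C7 side through the cells between to the DLK1 side, and contractile stroma as separate points. COL15A1 is baboon only and COL16A1 is shown for the rhesus macaque, and each panel has its own axis from 0. In the baboon, COL14A1 falls (141 and 260 to 36.7 and 34.7) and COL15A1 rises (318 and 385 to 665 and 1055) in both animals.

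Members below 50 CPM in every class numbered 25 in the baboon and 31 in the rhesus macaque, and each of them had at least 1 UMI in a classed cell. The highest level among them, as a mean of the animals, was 48.8 CPM for COL4A5 in the baboon and 27.6 CPM for COL4A1 in the rhesus macaque. COL12A1, just inside the limit in the baboon, had a mean of 51.5 CPM in mural cells. COL13A1, a transmembrane collagen, was called in the baboon, with 7.70 and 18.6 CPM in stroma and 3.48 and 1.77 CPM in Sertoli cells (2.51 ± 0.49, adjusted p = 6.49e-06). It is named here after its values were seen.

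The genes that fold, cut, cross-link, degrade and bind collagen were followed in lists written with earlier results of these data known. For folding and modification in the endoplasmic reticulum, 14 of 17 genes were tested in each species. Of these, 6 were higher and 3 lower in baboon stroma than in Sertoli cells, and 5 were higher and 3 lower in the rhesus macaque. Over all genes, 24.1% were higher and 24.6% lower in the baboon and 15.7% and 16.1% in the rhesus macaque, so the counts lower in stroma were near that share in both species. SERPINH1, the collagen chaperone HSP47, was higher in stroma in the baboon (3.26 ± 0.22, adjusted p = 4.57e-25) and in the rhesus macaque (2.03 ± 0.33, adjusted p = 7.73e-05). P3H2, a prolyl 3-hydroxylase, was lower in stroma in both (-1.51 ± 0.35, adjusted p = 1.53e-04 and -1.26 ± 0.33, adjusted p = 0.00580), as was P4HA2, a subunit of prolyl 4-hydroxylase (-1.46 ± 0.30, adjusted p = 1.46e-05 and -1.84 ± 0.42, adjusted p = 0.00208).

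Propeptide processing and cross-linking genes were higher in stroma wherever they were tested against Sertoli cells, 7 of 7 in the baboon and 6 of 6 in the rhesus macaque, against 24.1% and 15.7% of all genes. LOXL2, a lysyl oxidase, was higher in stroma by 6.40 ± 0.72, adjusted p = 2.58e-13 in the baboon and 3.57 ± 0.55, adjusted p = 5.16e-05 in the rhesus macaque. It was higher again in endothelial cells than in stroma (2.85 ± 0.55, adjusted p = 9.36e-06 in the baboon and 2.15 ± 0.49, adjusted p = 0.00311 in the rhesus macaque). LOXL2 stood at 54.3 and 49.4 CPM in baboon endothelial cells and 51.8 and 29.3 CPM in baboon mural cells. PCOLCE, which speeds the removal of the C-propeptide, was lower in Leydig cells than in stroma in both species (-4.46 ± 0.87, adjusted p = 1.28e-04 and -4.36 ± 0.75, adjusted p = 7.16e-04). Against stroma, 5 of the 7 genes in the baboon and 4 of the 6 in the rhesus macaque were lower in endothelial cells, and 1 in each, LOXL2, was higher. Over all genes, 17.8% and 10.0% were lower and 19.0% and 11.4% higher.

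Of the genes for breakdown and its inhibitors, 5 were higher and 2 lower in baboon stroma than in Sertoli cells out of 7, and 6 were higher and 1 lower out of 7 in the rhesus macaque. The counts lower in stroma were near the share over all genes (24.6% and 16.1%). MMP14, a membrane-bound collagenase, was higher (5.32 ± 0.28, adjusted p = 1.17e-32 and 3.96 ± 0.33, adjusted p = 6.39e-08), and MMP9, a gelatinase, was lower in stroma in both species (-3.27 ± 0.49, adjusted p = 7.53e-09 and -3.55 ± 0.68, adjusted p = 4.82e-04). Against stroma, 0 were higher and 2 were lower in baboon mural cells, 1 was higher and 2 lower in rhesus mural cells, 6 of 7 and 5 of 7 were lower in endothelial cells, and 2 of 7 and 4 of 7 were lower in Leydig cells. The shares of all genes that were lower were 5.49% and 1.81% in mural cells, 17.8% and 10.0% in endothelial cells and 3.08% and 4.46% in Leydig cells. MMP9 was higher in baboon Leydig cells (4.16 ± 1.23, adjusted p = 0.0278). That call rests on the thin class of 10 and 22 cells with 109511 UMIs in all, for which several alternatives were not run. Of the 8 receptors, 3 were tested in each species against Sertoli cells, and 1 was higher and 1 lower in baboon stroma and 2 were higher and 1 lower in rhesus stroma. The shares over all genes were 24.1% and 24.6% in the baboon and 15.7% and 16.1% in the rhesus macaque, and nothing is read from 3 genes. DDR1, a collagen receptor of epithelial cells, was lower in stroma than in Sertoli cells (-1.98 ± 0.23, adjusted p = 8.35e-13 in the baboon and -2.42 ± 0.28, adjusted p = 2.22e-06 in the rhesus macaque). ITGA1, the alpha 1 integrin chain, was higher in endothelial cells than in stroma (4.03 ± 0.28, adjusted p = 1.47e-23 and 5.63 ± 0.49, adjusted p = 1.01e-07) and higher in mural cells than in stroma (3.02 ± 0.46, adjusted p = 9.84e-08 and 3.69 ± 0.62, adjusted p = 9.88e-04). ITGA1 had 135 and 239 CPM in baboon endothelial cells and 9.23 and 12.4 CPM in stroma.

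Of the collagen-bound matrix proteins, 4 of 4 tested were higher in baboon stroma than in Sertoli cells and 4 of 5 in the rhesus macaque, against 24.1% and 15.7% of all genes. OGN, a small leucine-rich proteoglycan of fibrils, was higher (7.38 ± 0.28, adjusted p = 5.85e-43 and 4.86 ± 0.43, adjusted p = 1.08e-07). BGN, biglycan, was higher in baboon mural cells than in stroma (1.93 ± 0.28, adjusted p = 1.60e-08) and higher on the DLK1 side than on the C7 side (1.65 ± 0.26, adjusted p = 7.21e-08), at 232 and 119.7 CPM and 65.5 and 40.2 CPM. ASPN, asporin, was also higher in baboon mural cells (5.40 ± 0.74, adjusted p = 4.09e-09). Its fitted level was lower in every other class of that fit, and it passed the filter through its mural level. The mural class held 77 and 44 cells. Along the stromal range of the baboon, 6 genes of the 5 lists were called, 3 in each direction, out of 14, 6, 7, 3 and 4 genes tested per list and against 1.28% higher and 1.29% lower over all genes, and in the rhesus macaque 0 were called. The 6 calls fell to 0 without the animal as a block.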

How the data were processed

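The authors deposited raw counts of UMIs per gene and barcode from Cell Ranger 3.1.0, mapped to Panubis1.0 (baboon) and Mmul_10 (rhesus macaque) per the labels; Seurat 3.2.3 is named in their processing notes. Cells were called with a UMI cutoff and a test against free RNA (barcodes ranked 45001 to 90000). A class needed at least 2 markers with UMIs and a Poisson p under 0.001 against 0.2 of the class share in free RNA, and exactly 1 class present; these thresholds were set after the data were seen. The stromal range needed at least 3 UMIs of the split markers, with a DLK1-side share of at most 0.2 (C7 side) or at least 0.5 (DLK1 side). Doublets were scored with scanpy 1.11.5 and kept.

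Counts were summed per animal and class and tested with edgeR 4.0.16 (R 4.3.3; TMM, filterByExpr, quasi-likelihood test, animal as a block, Benjamini-Hochberg adjustment over all genes, threshold 0.05, n = 2 animals per species). Classes of an animal come from the same libraries, which is the source of the pairing. All classes of a species entered 1 fit, with a second fit for the stromal sides. The spread was shared over classes and in part over genes. Very small p-values rest on that shared spread and do not measure agreement between 2 animals alone. Cells are not replicates, and species were never compared by a test. DESeq2 1.42.0 and further alternatives are given in the closing section. The members and lists were chosen with earlier results of these data known. Named are members at 50 CPM or more (mean of the animals) in any class and the type IX genes, and at most 2 called genes per direction of each processing list; other names were chosen after their values were seen. Libraries of 16875294 to 49803025 UMIs limit rare genes in small classes, and intervals cover counting error only. Genes and coordinates for sequences are from RefSeq, and positions matched 44 of 44 baboon and 40 of 41 rhesus members. Some sequences are not reported here.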

Additional observations from a re-analysis of the deposited data

Results flagged for a closer look

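For COL4A2, the level in stroma was below that in Sertoli cells in both baboons and above it in both rhesus macaques. Stroma minus Sertoli cells was -87.4 and -31.1 CPM in baboons 1 and 2 and 41.0 and 28.3 CPM in rhesus macaques 1 and 2. By edgeR the rhesus difference was not called (adjusted p = 0.0976), and the baboon call (0.0288) was lost without the block (0.263), with DESeq2 (0.148) and with classes from clusters (0.172). For COL3A1, which was called along the stromal range in neither species (adjusted p = 0.781 and 1.00), the DLK1 side minus the C7 side was -343 and -265 CPM in the baboons and 9.0 and 160.0 CPM in the rhesus macaques. Neither difference between the species was tested.

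Germ cells entered no comparison and held UMIs of collagens that were near 0 in the other classes. COL19A1 had 8.44 and 12.9 CPM and COL23A1 had 10.8 and 7.06 CPM in baboon germ cells, and COL11A2 had 9.04 and 29.9 CPM in rhesus germ cells. These levels rest on 7 and 11 UMIs of COL19A1, 9 and 6 of COL23A1 and 6 and 8 of COL11A2. These genes were named after their values were seen.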

How the results depend on the processing

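Counts of calls are given against the reported count. Without the animal as a block, collagens called fell from 18 to 11 (baboon mural), 4 to 0 (baboon DLK1 side) and 9 to 4 (rhesus Leydig), and processing genes from 13 to 7 (baboon mural), 6 to 2 (baboon Leydig), 6 to 0 (baboon DLK1 side), 6 to 2 (rhesus mural), 21 to 11 (rhesus endothelial) and 10 to 1 (rhesus Leydig). With classes from clusters, the collagens were 10 (baboon mural) and 2 (baboon DLK1 side) and the processing genes 8 and 1. With the UMI cutoff alone, both counts of the baboon DLK1 side were 0. DESeq2 gave 1 processing gene on the baboon DLK1 side and 3 in rhesus mural cells, and the split by 4 genes gave 3 on the baboon DLK1 side. Without the filter on low counts, rhesus mural collagens were 5 (3 reported), and rhesus processing genes were 11 (mural), 18 (Leydig) and 2 (DLK1 side, 0 reported). With libraries as samples these were 7, 13, 18 and 1. In that setting 2A and 2B of the same rhesus macaque entered as separate samples, as did 1A and 1B of the same baboon. They are not independent animals, so nothing is read from the higher counts. Without thinning, COL1A1 shares in stroma were 71.6% and 81.5% (baboon) and 73.7% and 85.4% (rhesus macaque), and COL9A1 shares in Sertoli cells 2.67% and 9.55%, and 20.9% and 28.1%. COL5A3 in baboon endothelial cells turned to 1.07 with classes from clusters. The cause was not tested for any of these.

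Leaving out 1 library of the animal with 2 gave 23 baboon collagens for stroma against Sertoli cells, 17 to 18 for mural, 19 to 21 for endothelial and 4 for the DLK1 side, and 11, 3, 8 to 10, 8 (Leydig) and 0 in rhesus macaques in that order. Processing genes were 27 to 28, 10 to 11, 23 and 4 to 5 in the baboon, and 23, 4 to 5, 18 to 20, 9 to 11 and 0 in the rhesus macaque. The baboon mural comparison with the UMI cutoff alone was not run, nor was baboon Leydig with that cutoff, the stricter class rule, clusters, doublets left out, or without library 1A or 1B, since an animal then had under 10 cells of the class. Of single-gene values, 1536 kept their side of the threshold or moved by less than the spread. For genes called in neither fit, these can include a change of direction. Of the calls, 60 were lost, 24 were gained and 1 turned. The 132 that moved came from leaving out a whole animal, where no test was possible with 1 animal left. With 2 animals and small mural and Leydig classes, low members were limited by depth.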
